A study of Mus musculus with 28 samples.

Results

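Ketone body metabolism in tibialis anterior (TA) muscle was followed through 4 genes, *Bdh1* (ENSMUSG00000046598), *Oxct1* (ENSMUSG00000022186), *Acat1* (ENSMUSG00000032047) and *Slc16a1* (ENSMUSG00000032902), out of the 55416 genes listed for cohort G and the 55359 listed for cohort F. They were chosen as enzymes and a transporter of this pathway, around *Bdh1*, which was selected on its fall between WT and disease mice of cohort G. For that comparison the values of all 4 genes are therefore a description without a test. For *Bdh1* the same holds in every other comparison that reuses those WT or disease mice. For all 4 genes it also holds in the interaction of genotype and tamoxifen, which contains that comparison. All 4 genes passed the filter on low counts in both cohorts.

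The study set 2 mouse models of centronuclear myopathy beside WT mice and asked how tamoxifen, a drug that binds estrogen receptors, changes their muscle. Cohort G was built on Dnm2 S619L/+ mice, with 1 mutant and 1 normal copy of *Dnm2*, and cohort F on Bin1 mck-/- mice, in which *Bin1* is deleted in muscle by the muscle creatine kinase promoter. The groups of cohort G were WT on placebo (WT), WT on tamoxifen (WT treated), Dnm2 S619L/+ on placebo (disease) and Dnm2 S619L/+ on tamoxifen (disease treated). The groups of cohort F were WT on placebo (WT), Bin1 mck-/- on placebo (disease) and Bin1 mck-/- on tamoxifen (disease treated). Each of the 7 groups had 4 mice of the C57BL/6N strain, 28 in all, and the TA was taken at 8 weeks of age. No WT mouse of cohort F received tamoxifen, so that tamoxifen could be compared with placebo in WT mice of cohort G alone. The cohorts differed in RNA input and fragmentation time (300 ng and 2 min in cohort G, 350 ng and 8 min in cohort F), so model and library protocol cannot be told apart between them.

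Ketone bodies are made by the liver in fasting and are burned by muscle, heart and brain. They enter the cell through monocarboxylate transporters such as MCT1, the product of *Slc16a1*. *Bdh1* encodes the mitochondrial dehydrogenase that turns β-hydroxybutyrate into acetoacetate. *Oxct1* encodes succinyl-CoA:3-oxoacid CoA transferase (SCOT), which activates acetoacetate and is the step that the liver lacks. *Acat1* encodes the mitochondrial thiolase that splits acetoacetyl-CoA into acetyl-CoA for the TCA cycle and that also works in isoleucine breakdown. In skeletal muscle, the capacity to use ketone bodies is known to be higher in oxidative than in glycolytic fibers.

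Reads on genes per mouse numbered 15586333 to 109710886 in cohort G and 24671835 to 35136327 in cohort F. Levels are given in CPM, which are read counts scaled to a common library size with edgeR's TMM factors. Summed markers of muscle were high in every mouse, from 75927 to 166460.2 CPM over 8 genes. These were *Ckm*, *Acta1*, *Mb*, *Des*, *Mylpf*, *Tnnt3*, *Tnni2* and *Myh4*. Of them, *Tnnt3*, *Tnni2* and *Myh4* are also among the fast fiber markers used below. Libraries that stood apart were found among the tamoxifen mice. Summed levels of 6 bone markers were, in cohort G, 990.1 to 2624 CPM in WT treated and 25.2 to 1988 CPM in disease treated mice. The placebo mice of the same cohort had at most 9.69 CPM, with up to 2 of the 6 genes at 0. In cohort F, 1 disease treated mouse (mouse 2) had 663 CPM and all others at most 5.59 CPM. The bone markers rose in 6 of 6 genes in WT treated against WT mice, with a median log2 fold change of 7.59, where 27.7% of all genes were called. The library of WT mouse 4 of cohort G has a library number outside the run of the other WT mice.

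In WT mice, the levels of the 4 genes spanned more than an order of magnitude. Per kb of exon length, *Oxct1* had the highest level, with 148 ± 11.5 CPM per kb in WT mice of cohort G (SD, n = 4), followed by *Acat1* with 79.7 ± 8.87. *Slc16a1* had 16.2 ± 2.49 and *Bdh1* 10.2 ± 4.36 CPM per kb. The values of *Oxct1* and *Acat1* did not overlap, and those of *Acat1* and *Slc16a1* did not either. The values of *Slc16a1* (13.2 to 18.9) and *Bdh1* (5.87 to 16) overlapped, so that the last places are not separated by the spread between mice. WT mice of cohort F had the same order, with 108 ± 10.3, 75.0 ± 5.49, 13.7 ± 2.60 and 11.1 ± 5.72 CPM per kb. The coefficient of variation of *Bdh1* between mice of a group was 14.9% to 57.6%, the highest of the 4 genes in 6 of the 7 groups. In WT treated mice that of *Oxct1* was higher (16.4%). The counts of *Bdh1* ranged from 43 to 2781 reads per mouse.

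RefSeq start sites were matched for 3 of the 4 genes, at 4 starts of the GRCm38.p6 build, and *Acat1* has no entry. The 250 bases before each start of *Bdh1* and *Oxct1* are shown because both genes had lower levels in disease than in WT mice of cohort G, and those of *Slc16a1* because its levels overlapped there. Capitals mark CANNTG, the E-box that muscle regulatory factors and other helix-loop-helix proteins recognize.
Bdh1, first start, chr16:31422047-31422296, plus strand: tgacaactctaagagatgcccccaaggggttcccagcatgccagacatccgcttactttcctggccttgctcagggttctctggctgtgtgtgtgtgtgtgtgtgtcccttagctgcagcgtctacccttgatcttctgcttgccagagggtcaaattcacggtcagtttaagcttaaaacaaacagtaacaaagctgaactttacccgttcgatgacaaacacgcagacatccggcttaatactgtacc
Bdh1, second start, chr16:31428503-31428752, plus strand: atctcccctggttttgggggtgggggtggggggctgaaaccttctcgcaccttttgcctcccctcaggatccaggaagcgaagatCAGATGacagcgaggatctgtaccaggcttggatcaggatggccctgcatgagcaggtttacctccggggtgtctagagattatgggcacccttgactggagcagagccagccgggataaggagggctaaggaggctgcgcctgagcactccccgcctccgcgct
Oxct1, chr15:4026178-4026427, plus strand: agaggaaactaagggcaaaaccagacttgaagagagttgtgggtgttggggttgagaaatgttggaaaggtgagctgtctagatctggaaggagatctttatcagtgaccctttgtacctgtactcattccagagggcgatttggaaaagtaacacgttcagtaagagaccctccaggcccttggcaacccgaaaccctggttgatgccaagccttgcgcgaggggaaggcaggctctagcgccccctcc
Slc16a1, chr3:104638414-104638663, plus strand: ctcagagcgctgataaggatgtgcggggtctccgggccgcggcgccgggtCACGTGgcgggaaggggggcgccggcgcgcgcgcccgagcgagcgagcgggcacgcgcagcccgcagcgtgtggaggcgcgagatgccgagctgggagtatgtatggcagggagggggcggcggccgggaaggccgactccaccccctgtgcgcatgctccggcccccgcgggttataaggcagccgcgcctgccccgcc
The 250 bases shown were searched on both strands for 4 motifs, which were AGGTCA (the half-site of nuclear receptors), AAGGTCA (the longer half-site of estrogen-related receptors, which contains the former), the full estrogen response element GGTCANNNTGACC, and CANNTG. None of the 4 windows contained either half-site or the full element. Among 32851 promoter windows of the same length, 14.02% contained AGGTCA, 4.08% AAGGTCA and 0.06% the full element. CANNTG occurred once before the second start of *Bdh1* and once before the start of *Slc16a1*, and 66.22% of all windows contained it. The GC content was 49.6% and 60.8% before the starts of *Bdh1*, 52.0% for *Oxct1* and 76.4% for *Slc16a1*. Matches are letters in a window of another build than that of the counts, and the files do not tell which start of *Bdh1* was used in these muscles.

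**Figure D1:**
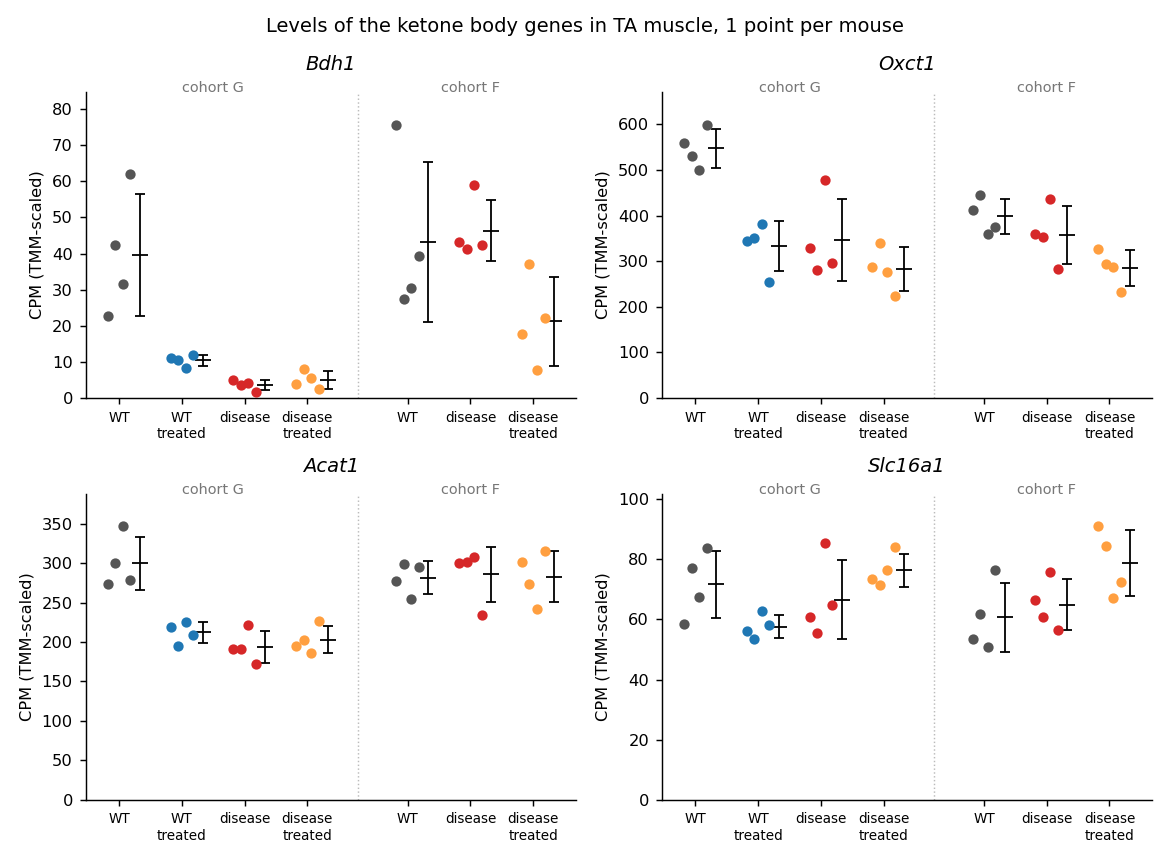
CPM of the 4 genes (vertical axes, from 0) in each of the 28 mice, by group of cohort G (left of the dotted line) and cohort F (right). Points are mice and bars are means ± SD. *Bdh1* lies at 22.8 to 62.1 CPM in WT mice of cohort G and at 1.70 to 4.98 CPM in its disease mice, while *Slc16a1* lies between 50.9 and 91.0 CPM in every group.

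In disease mice of cohort G, the β-hydroxybutyrate step had a far lower transcript level than in WT mice, both steps of acetoacetate use had moderately lower levels, and the transporter overlapped. These values chose *Bdh1*. *Bdh1* had 22.8, 42.3, 31.5 and 62.1 CPM in the WT mice and 4.98, 3.50, 4.16 and 1.70 CPM in the disease mice. Every disease mouse was below every WT mouse, and the means were 39.7 ± 16.9 and 3.59 ± 1.40 CPM (SD, n = 4). The log2 fold change of the fit was −3.44 with SE 0.39, a 10.8-fold lower level. Leaving out 1 mouse at a time moved this value between −3.65 and −3.13, and it was −3.13 without WT mouse 4. *Oxct1* had 560.2, 532, 499 and 599 CPM in WT and 328, 280.1, 477 and 297 CPM in disease mice. Disease mouse 3 came close to the lowest WT mouse, yet the groups did not overlap (log2 fold change −0.66 with SE 0.17). Scaled by plain column totals instead of TMM they overlapped, with 474 CPM in disease mouse 3 and 405 CPM in WT mouse 3. *Acat1* had 274, 299.6, 347 and 278 CPM in WT and 191, 191, 222 and 173 CPM in disease mice, again without overlap (log2 fold change −0.63 with SE 0.10). *Slc16a1* had 58.5, 77, 67.4 and 83.7 CPM in WT and 60.9, 55.4, 85.3 and 64.7 CPM in disease mice. Its groups overlapped almost fully (log2 fold change −0.11 with SE 0.13). Of all 15439 genes tested in this comparison, 21.9% were called at an edgeR adjusted p under 0.05. The groups did not overlap for 3 of the 4 genes and for 24.9% of all genes tested. In whole muscle, fewer cells of a type and less RNA per cell cannot be told apart.

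Markers of fibers, vessels and leukocytes moved beside these levels. The summed level of 9 slow and oxidative fiber genes had a median of 1998 CPM in WT mice (1383 to 3208) and 879.6 in disease mice (388 to 1145), and its members split. *Myh2*, the myosin heavy chain of fast oxidative fibers, had 1986 ± 726 CPM in WT and 568 ± 246 in disease mice (log2 fold change −1.80 with SE 0.32, edgeR adjusted p = 0.00129). It made up most of the sum in WT mice. *Myh7*, the slow myosin heavy chain, rose from 3.51 ± 1.57 to 30.8 ± 22.8 CPM (log2 fold change 3.09 with SE 0.84, edgeR adjusted p = 0.0175). Of the 9 genes, 6 rose and 2 fell. Of 5 endothelial genes, 3 fell and none rose, with a median log2 fold change of −1.06, and their sum went from 360.3 to 728 CPM in WT to 165 to 479 in disease mice. Of 6 macrophage and leukocyte genes, 3 rose and none fell, with a median log2 fold change of 1.28, and all 6 had an unadjusted edgeR p under 0.05. Their sum went from 45.1 to 74.2 CPM in WT to 68.9 to 309.7 CPM in disease mice. Of all 15439 genes tested in this comparison, 21.9% were called and 5629 had an unadjusted edgeR p under 0.05. The muscle marker sum had a median of 135250.3 CPM in WT and 112999 in disease mice. Set per muscle marker sum, the log2 difference of *Bdh1* was −3.26 and that of *Acat1* −0.41, both without overlap, while *Oxct1* was −0.48 with overlap. The part of fiber types, vessels and leukocytes in the level of *Bdh1* was not tested.

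**Figure D2:**
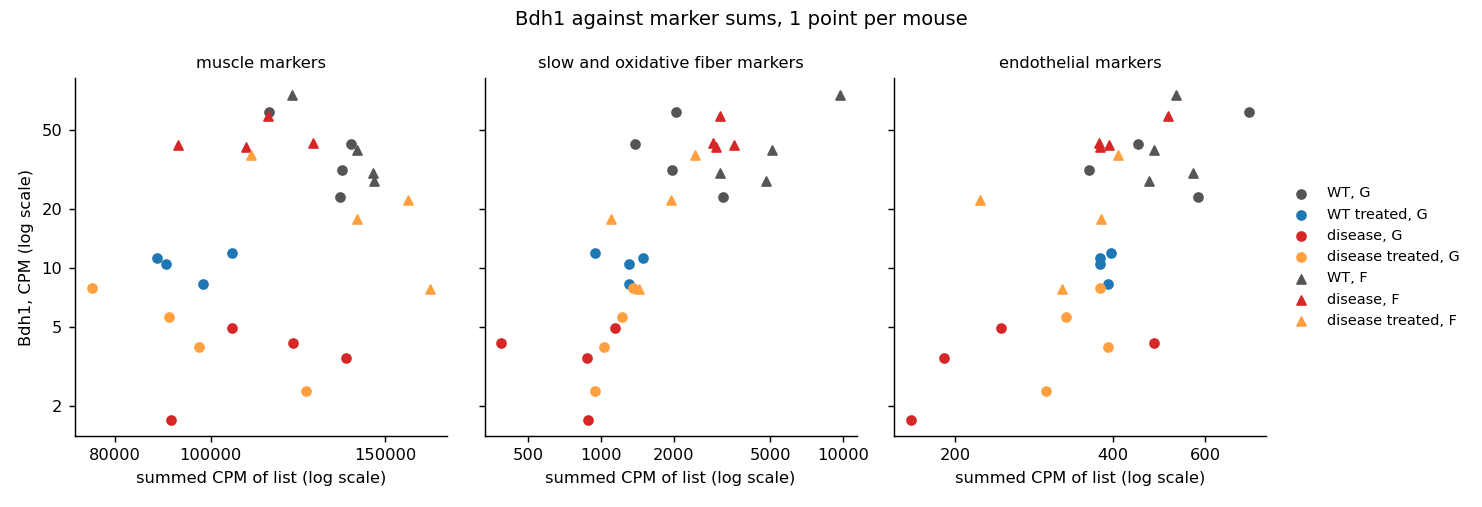
*Bdh1* (vertical axes, CPM, log scale) against the summed CPM of 8 muscle, 9 slow and oxidative fiber and 5 endothelial markers (horizontal axes, log scales), with 1 point per mouse and circles for cohort G, triangles for cohort F. The disease mice of cohort G lie at 1.70 to 4.98 CPM of *Bdh1* and at 388 to 1145 CPM of the fiber markers, and WT mouse 5 of cohort F is highest in both, with 75.7 and 9691 CPM. In WT mice of cohort G, most of the fiber marker sum was *Myh2*, a gene of fast oxidative fibers.

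Tamoxifen alone went with lower levels of the ketone body enzymes in WT mice of cohort G. *Oxct1* fell from 548 ± 42.6 CPM in WT to 333 ± 54.7 in WT treated mice (n = 4 each). The treated mice had 344, 350.0, 382 and 254 CPM, all below the 499 CPM of the lowest WT mouse, with a log2 fold change of −0.72 and an SE of 0.17 (edgeR adjusted p = 0.00629). *Acat1* fell from 299.6 ± 33.3 to 212 ± 13.2 CPM, with 219, 195, 225 and 209 CPM in the treated mice and no overlap (log2 fold change −0.50 with SE 0.10, edgeR adjusted p = 0.00279). *Slc16a1* had 56.1, 53.5, 62.9 and 58.0 CPM in the treated mice and overlapped with WT. Its log2 fold change of −0.31 and an SE of 0.13 did not pass the test (edgeR adjusted p = 0.0834), but it passed without WT mouse 1 (−0.40, 0.0382) or without disease mouse 3 (−0.32, 0.0387). Of the 3 genes tested here 2 fell, where 27.7% of all 15439 genes were called. The groups did not overlap for the same 2, and for 31.4% of all genes. *Bdh1* had 11.2, 10.5, 8.29 and 11.9 CPM in the treated mice, all below WT, which is given as a description (log2 fold change −1.91 with SE 0.36).

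The calls of *Oxct1* and *Acat1* held in all 16 fits that left out 1 mouse of the cohort, with log2 fold changes of −0.79 to −0.61 and −0.54 to −0.42. They did not hold per muscle marker sum. That sum went from a median of 135250.3 CPM in WT to 94136 in WT treated mice. Scaled by it, *Oxct1* had a log2 difference of −0.28 (exact two-sided permutation p = 0.314, n = 4 each) and *Acat1* of −0.04 (exact permutation p = 0.743), while *Bdh1* stayed without overlap at −1.38. All 4 WT treated libraries contained bone markers, so no value without them exists. The macrophage and leukocyte sum also rose from 45.1 to 74.2 CPM in WT to 146 to 277 CPM in WT treated mice. Of its 6 genes, 5 were called higher, where 27.7% of all genes were called. The part of other cell types in the falls of *Oxct1* and *Acat1* was not tested.

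In disease mice of cohort G, none of the 3 tested genes was called under tamoxifen, and none had an unadjusted edgeR p under 0.05 or a call by DESeq2. *Oxct1* had 288, 341, 276 and 224 CPM in disease treated mice, inside or below the range of disease mice (log2 fold change −0.29, 95% interval −0.63 to 0.04, edgeR adjusted p = 0.298). *Acat1* had 203 ± 17.3 CPM against 194 ± 20.4 (log2 fold change 0.07, 95% interval −0.14 to 0.27, edgeR adjusted p = 0.737). *Slc16a1* had 76.4 ± 5.45 CPM against 66.6 ± 13.1 (log2 fold change 0.20, 95% interval −0.06 to 0.45, edgeR adjusted p = 0.365). The background was 8.27% of genes called, and the groups did not overlap for 10.4% of genes and for none of the 4. As a description, *Bdh1* had 3.96, 7.93, 5.66 and 2.38 CPM in disease treated mice. Disease treated mice 2 and 3 were above every disease mouse, and the groups overlapped (log2 fold change 0.45 with SE 0.38). The highest of the 8 Dnm2 S619L/+ mice, 7.93 CPM, was still below the lowest WT mouse, 22.8 CPM.

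The mice on tamoxifen gave a second view of the genotype, since none of them entered the comparison that chose *Bdh1*. The genes were still chosen with earlier results of these data known, so this view is not fully independent of the choice. *Bdh1* had 10.5 ± 1.56 CPM in WT treated and 4.98 ± 2.38 in disease treated mice, and the groups did not overlap, though by a narrow margin (7.93 against 8.29 CPM). Per muscle marker sum the log2 difference was −1.20 and the groups overlapped. By plain column totals they overlapped too, with 9.22 CPM in disease treated mouse 2 and 8.38 CPM in WT treated mouse 3. The log2 fold change of −1.08 and an SE of 0.37 (95% interval −1.80 to −0.36) did not pass the test over all genes (edgeR adjusted p = 0.138), where 2.70% of 15439 genes were called. Leaving out 1 mouse at a time gave −1.39 to −0.84. *Slc16a1* did not overlap either, with 53.5 to 62.9 CPM in WT treated and 71.5 to 84.0 CPM in disease treated mice (log2 fold change 0.41 with SE 0.13, edgeR adjusted p = 0.113). *Oxct1* had a log2 fold change of −0.24 and an SE of 0.17 (edgeR adjusted p = 0.489) and *Acat1* of −0.06 (SE 0.10, edgeR adjusted p = 0.784), and both overlapped. The groups did not overlap for 2 of the 4 genes and for 10.7% of all genes. None of the 4 genes was called by edgeR or DESeq2, and 2 had an unadjusted edgeR p under 0.05. Of all 15439 genes, 2761 had such a p.

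The difference between the tamoxifen effects in Dnm2 S619L/+ and WT mice was fitted as an interaction, which called 0.259% of all genes. It contains the difference between disease and WT mice with the opposite sign. Its values for the ketone body genes are therefore a description without a test. The interaction was 0.56 for *Acat1* on the log2 scale (SE 0.15), 0.51 for *Slc16a1* (SE 0.18) and 0.43 for *Oxct1* (SE 0.24). Disease mouse 3 had the highest *Oxct1*, *Acat1* and *Slc16a1* of its group. Without it, the interaction was 0.64 for *Acat1* and 0.66 for *Slc16a1*. With DESeq2 it was 0.58 for *Acat1*. For *Bdh1* the interaction was 2.36 (SE 0.52).

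In cohort F, none of the 4 genes was called between Bin1 mck-/- and WT mice. *Bdh1* had 75.7, 27.5, 30.3 and 39.4 CPM in WT mice and 43.1, 41.2, 59.0 and 42.3 CPM in disease mice. The disease mice lay inside the range of the WT mice, whose top value came from mouse 5. The log2 fold change of 0.10 and an SE of 0.44 (edgeR adjusted p = 0.929) had a 95% interval of −0.76 to 0.96, and it was 0.51 without WT mouse 5. *Oxct1* had 398 ± 38.1 CPM in WT and 358 ± 63.3 in disease mice (log2 fold change −0.15, 95% interval −0.43 to 0.13, edgeR adjusted p = 0.596). *Acat1* had 282 ± 20.6 and 286 ± 34.7 CPM (log2 fold change 0.02, 95% interval −0.22 to 0.26, adjusted p = 0.946). *Slc16a1* had 60.6 ± 11.5 and 65.0 ± 8.36 CPM (log2 fold change 0.10, 95% interval −0.18 to 0.38, adjusted p = 0.755). In this comparison 2.61% of 14841 genes were called, and none of the 4 had a call by DESeq2 or an unadjusted edgeR p under 0.05. The groups overlapped for all 4 and did not for 16.5% of all genes. Per muscle marker sum, *Bdh1* had a log2 difference of 0.53 with overlap and *Acat1* of 0.34 without overlap. The macrophage and leukocyte markers rose in 4 of 6 genes and the adipocyte markers in 3 of 5, and 3 of 8 fast fiber genes fell.

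Under tamoxifen, Bin1 mck-/- mice had lower *Bdh1* than on placebo in every mouse, although no gene of the 4 passed the test. *Bdh1* had 17.6, 37.2, 7.84 and 22.1 CPM in disease treated mice, against 41.2 CPM in the lowest disease mouse. The means were 21.2 ± 12.2 and 46.4 ± 8.42 CPM, with a log2 fold change of −1.12 and an SE of 0.45 (95% interval −2.0 to −0.24, edgeR adjusted p = 0.193). Mouse 2, the treated mouse with bone markers, had the highest *Bdh1*, and without it the value was −1.54 (edgeR adjusted p = 0.0583). Without treated mouse 3, which had the lowest *Bdh1*, it was −0.85 (edgeR adjusted p = 0.292). These were the ends of the range over all left-out mice. *Oxct1* had 328, 293, 287 and 232 CPM in treated mice, a log2 fold change of −0.33 and an SE of 0.14 (edgeR adjusted p = 0.206) with overlap. *Acat1* had 283 ± 32.7 CPM (log2 fold change −0.01, 95% interval −0.25 to 0.22, adjusted p = 0.960). *Slc16a1* had 91.0, 84.5, 67.1 and 72.4 CPM in treated mice (log2 fold change 0.28 with SE 0.14, adjusted p = 0.280). The background was 3.13% of genes called, and the groups did not overlap for 9.8% of genes and for 1 of the 4. Of the 4 genes, 2 had an unadjusted edgeR p under 0.05 and none was called by DESeq2. Of all 14841 genes, 3068 had such a p.

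Beside *Bdh1*, the slow and oxidative fiber sum of disease treated mice was 1099 to 2447 CPM against 2907 to 3537 in disease mice. This sum adds *Myh2* of fast oxidative fibers to slow fiber genes and does not separate them. None of its 9 genes was called by edgeR or DESeq2, and 1 had an unadjusted edgeR p under 0.05. The 6 Schwann cell and perineurium markers summed to 20.7 to 36.7 CPM in disease treated and 48.5 to 103.6 CPM in disease mice. Of them, 4 were called lower and all 6 had an unadjusted edgeR p under 0.05. Of all 14841 genes tested in this comparison, 3.13% were called and 3068 had such a p. Of 8 fast fiber genes, 3 rose and none fell. The part of these cells and fibers in the levels of *Bdh1* was not tested. The muscle marker sum went the other way, from a median of 111377 CPM in disease to 149293 in disease treated mice. The fast fiber sum, which shares *Tnnt3*, *Tnni2* and *Myh4* with the muscle list, rose likewise, from a median of 95558 to 137752 CPM. Per muscle marker sum, *Bdh1* had a log2 difference of −1.69 and *Oxct1* of −0.69, both without overlap. Such values therefore also follow fast fiber transcripts. Against WT mice of the cohort, disease treated mice had a log2 fold change of −1.02 for *Bdh1* (SE 0.45, edgeR adjusted p = 0.327) with overlap and of −0.48 for *Oxct1* (SE 0.14, adjusted p = 0.131) without overlap. DESeq2 called the latter (−0.48, adjusted p = 0.0363). *Slc16a1* had 0.38 (SE 0.14, adjusted p = 0.24) and *Acat1* 0.01 (adjusted p = 0.988). Of all genes 0.849% were called by edgeR in this comparison and none of the 4, of which 3 had an unadjusted p under 0.05. Of all 14841 genes, 2205 had such a p. The groups did not overlap for 7.97% of genes and for 1 of the 4.

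The tamoxifen effects in the disease mice of both cohorts were compared in 1 fit with a mean per group. It had no term for the cohort, which cancels within each effect. The effect in cohort F minus that in cohort G was −0.07 for *Oxct1* (SE 0.23, edgeR adjusted p = 0.887), −0.11 for *Acat1* (SE 0.15, adjusted p = 0.700) and 0.05 for *Slc16a1* (SE 0.20, adjusted p = 0.905). For *Bdh1* it was −1.61 (SE 0.60), as a description, from a value of 0.45 in cohort G and −1.12 in cohort F. Of 16036 genes 1.71% were called, and none of the 3 tested here had a call by DESeq2 or an unadjusted edgeR p under 0.05.

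**Figure D3:**
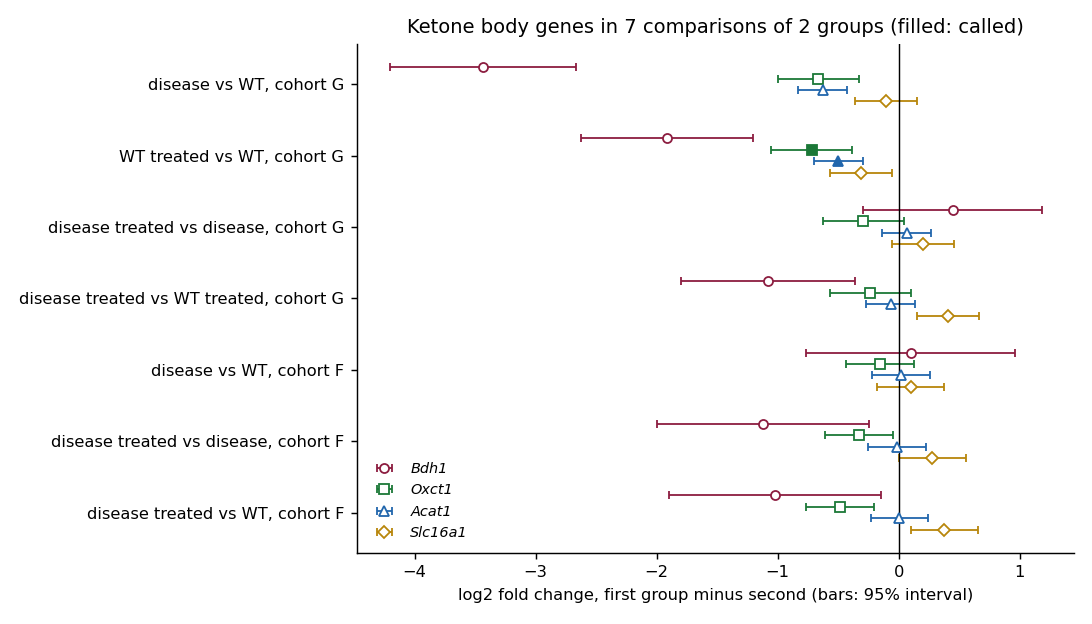
Log2 fold changes of the 4 genes (horizontal axis, first group minus second) in 7 comparisons of pairs of groups, with bars for 95% intervals and filled symbols for an edgeR adjusted p under 0.05. *Bdh1* ranges from −3.44 in disease mice of cohort G to 0.45 under tamoxifen in the same mice, and the only filled symbols are those of *Oxct1* and *Acat1* in WT treated against WT mice.

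Around the 4 genes, 71 genes of the pathway were listed in 5 groups, and 62 of them were tested in cohort G. The other enzymes of ketone body synthesis and use had none of 7 tested genes called between disease and WT mice of cohort G, by edgeR, by DESeq2 or at an unadjusted edgeR p under 0.05, with a median log2 fold change of 0.24. Among them, *Aacs*, which encodes the cytosolic synthetase that activates acetoacetate, had a log2 fold change of 0.69 with SE 0.36 (edgeR adjusted p = 0.184). Under tamoxifen in WT mice, 2 of the 7 genes rose and none fell, a share of 28.6% against 27.7% of all genes called. *Hmgcll1*, an extramitochondrial HMG-CoA lyase, rose from 0.348 ± 0.140 to 1.41 ± 0.359 CPM, which are low levels (log2 fold change 1.94 with SE 0.46, edgeR adjusted p = 0.00624).

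Genes of the TCA cycle, which burns the acetyl-CoA from ketone bodies, had lower levels in both comparisons. Of 16 genes, 9 fell and none rose in disease mice of cohort G, with a median log2 fold change of −0.35, against 0.02 over all genes, of which 21.9% were called. *Sdha*, a subunit of succinate dehydrogenase, fell from 1417 ± 137 to 959.9 ± 145 CPM (log2 fold change −0.56 with SE 0.12, edgeR adjusted p = 0.00488), and *Ogdh* (−0.47) fell as well. In WT treated mice all 16 fell against WT, with a median of −0.49, against −0.04 over all genes, of which 27.7% were called. *Idh3b* (−0.56, SE 0.10, edgeR adjusted p = 0.00104), *Sdhb* (−0.66, SE 0.12, 0.00112) and *Sdhc* (−0.49, SE 0.09, 0.00115) had the smallest p. Both comparisons share the WT mice. The 8 muscle markers had medians of −0.13 in disease mice, with 1 gene called higher and 1 lower, and of −0.42 in WT treated mice, with none called by edgeR, 7 at an unadjusted p under 0.05 and 5 called by DESeq2. In the latter comparison, 6216 of all 15439 genes had an unadjusted edgeR p under 0.05. The part of the muscle share of the RNA in the TCA cycle genes was not tested. Genes of branched-chain amino acid breakdown, those of valine included, fell in 5 of 16 in disease and in 14 of 16 in WT treated mice, with medians of −0.16 and −0.46. *Hibch*, *Mccc2* and *Dld* were among those called in each comparison. *Hibch*, a hydrolase of valine breakdown, had 61.2 ± 5.44 CPM in WT, 45.4 ± 4.28 in disease and 40.8 ± 4.30 in WT treated mice.

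Monocarboxylate transporters and their chaperones were mixed. In disease mice of cohort G, *Nptn*, a chaperone of these transporters, rose from 93.4 ± 7.41 to 112 ± 1.42 CPM (log2 fold change 0.27 with SE 0.08, edgeR adjusted p = 0.0335). It was the only call among 9 genes, where 21.9% of all genes were called. *Mpc1*, a subunit of the mitochondrial pyruvate carrier, had a log2 fold change of −0.44 (adjusted p = 0.0789). *Emb*, which encodes the chaperone embigin, had 4.76 ± 3.71 CPM in disease against 1.24 ± 0.917 in WT mice (1.75, adjusted p = 0.0802). In WT treated mice, 2 of the 9 rose and 3 fell, where 27.7% of all genes were called. *Emb* rose to 48.0 ± 15.0 CPM (log2 fold change 5.07 with SE 0.74, edgeR adjusted p = 0.000397). *Slc16a6* (MCT7) fell from 12.1 ± 1.92 to 4.63 ± 1.2 CPM (log2 fold change −1.38 with SE 0.22, edgeR adjusted p = 0.000661), and *Mpc1* fell (−0.72, SE 0.17, adjusted p = 0.00664). *Emb* also rose under tamoxifen in disease mice of cohort G, to 41.7 ± 26.5 CPM (log2 fold change 3.11 with SE 0.67, edgeR adjusted p = 0.0129). This was the only call among the 62 pathway genes there, where 8.27% of all genes were called. The bone markers rose in the same comparisons, and their part in *Emb* was not tested.

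Among regulators of oxidative genes, 6 of 14 fell in disease mice of cohort G and none rose, with a median of −0.33, where 21.9% of all genes were called. *Esrrb*, an estrogen-related receptor, fell from 10.8 ± 2.5 to 4.28 ± 0.452 CPM (log2 fold change −1.33 with SE 0.21, edgeR adjusted p = 0.000475). The retinoid X receptor genes *Rxra* (−0.45, SE 0.11, adjusted p = 0.0113) and *Rxrg* (−0.88, SE 0.23, 0.0132) fell, and *Ppargc1a*, the coactivator of mitochondrial genes, fell as well (−1.59, SE 0.48, 0.0279). In WT treated mice 4 of 14 fell, a share of 28.6% that is near the 27.7% of all genes called. Among them were *Esrrb* (−1.11, SE 0.21, edgeR adjusted p = 0.00136), *Sirt3* (−0.50, SE 0.09, 0.00138) and *Esrra* (−0.43, SE 0.11, 0.00956). Disease treated mice had less *Rxrg* than WT treated mice (19.3 ± 4.13 against 39.3 ± 6.93 CPM, log2 fold change −1.02 with SE 0.23, edgeR adjusted p = 0.0233). This was the only call among the 62 genes, where 2.70% of all genes were called.

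In cohort F, 61 pathway genes were tested. In disease against WT mice 1 was called (1.64%, against 2.61% of all genes), which was *Rxra* (log2 fold change −0.63 with SE 0.16, edgeR adjusted p = 0.0486). In disease treated against disease mice 5 were called (8.2%, against 3.13% of all genes). *Esrrg* fell from 31.5 ± 4.65 to 16.2 ± 0.996 CPM (log2 fold change −0.96 with SE 0.16, edgeR adjusted p = 0.00683) and *Esrrb* from 12.5 ± 2.76 to 4.96 ± 2.08 CPM (−1.32, SE 0.27, 0.02). *Dbt*, a subunit of the branched-chain ketoacid dehydrogenase, fell from 35.3 ± 4.77 to 21.3 ± 0.952 CPM (−0.73, SE 0.11, 0.00332). *Slc16a6* fell (−0.69, SE 0.16, 0.0308) and *Bsg*, the chaperone of MCT1, rose from 487 ± 60.4 to 761 ± 156 CPM (0.64, SE 0.15, 0.0303). Against WT, *Slc16a6* (−0.79, edgeR adjusted p = 0.0311) and *Dbt* (−0.50, adjusted p = 0.0417) were lower in disease treated mice, where 0.849% of all genes were called. None of the 16 TCA cycle genes was called in any of the 3 comparisons of this cohort, at medians of −0.10, 0.02 and −0.08, and none had a call by DESeq2 or an unadjusted edgeR p under 0.05.

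**Figure D4:**
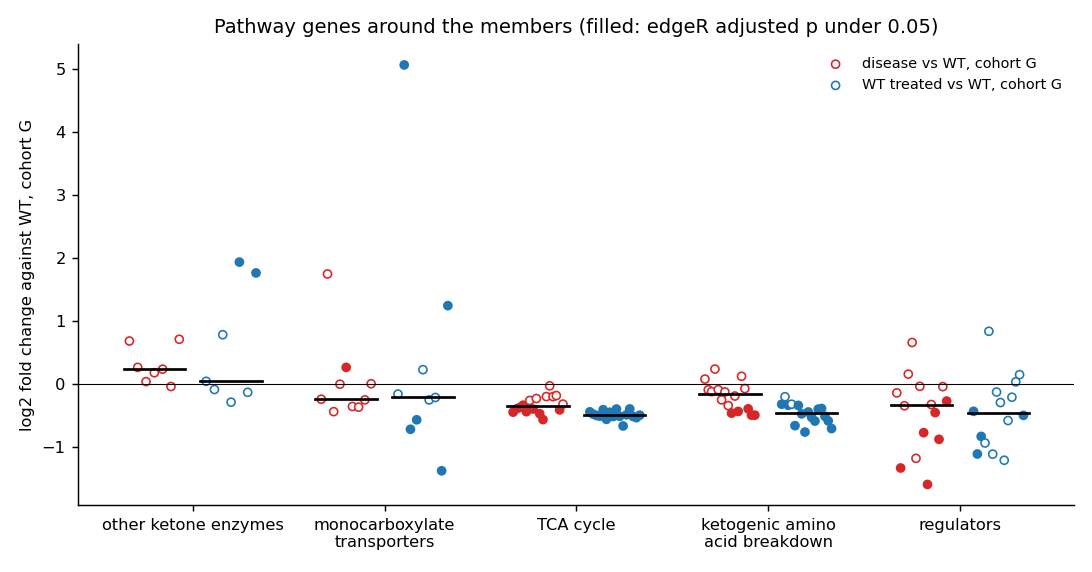
Log2 fold changes (vertical axis) of the tested genes of 5 pathway groups in disease mice (red) and WT treated mice (blue) against the WT mice of cohort G. Points are genes, filled where the edgeR adjusted p is under 0.05, and black lines are medians. The group labeled ketogenic amino acid breakdown also holds genes of valine breakdown, which is not ketogenic. All 16 TCA cycle genes are filled and below 0 in WT treated mice, and *Emb* is the point at 5.07.

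The genes whose levels were most like those of *Bdh1* were ranked over the 28 mice by the correlation of log2 CPM after subtracting the mean of each cohort, among 10873 genes. The first 8 were *Palmd* (r = 0.88), *Cd200* (0.84), *Flt1* (0.83), *Fmo1* (0.83), *Lpl* (0.82), *mt-Nd5* (0.82), *Esrrb* (0.81) and *Epas1* (0.81). The mice share groups and depth, so these values are a description. Within groups, after subtracting the mean of each of the 7 groups, r was highest for *Fmo1* (0.75) and *Cd200* (0.71) and lowest for *mt-Nd5* (0.24). *Esrrb* had r = 0.88 in cohort G and 0.82 in cohort F, with 0.55 within groups. *Oxct1* ranked 69th with r = 0.72 and *Acat1* 75th with 0.71, and *Slc16a1* had r = −0.06. Within groups these members had r = 0.28, 0.14 and 0.23.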

How the data were processed

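Gene counts of 28 TA muscles were used, in 7 groups of 4 mice taken from the sample labels. The authors deposited whole-number read counts per Ensembl gene, without normalization. The submitters' processing notes name bcl2fastq 2.20.0.422, cutadapt 1.10, Bowtie 1.2.2, STAR 2.5.3, HTSeq 0.6.1p1 and build mm39, with no role or order. In cohort F, 4 lines of the table name no gene. They held 22.0% to 30.8% of all counts (median 23.9%) and stayed out of library sizes and tests. Identifiers were named with GENCODE M21 (52083 of the 55359 and 55416 identifiers), whose exon lengths also served the levels per kb.

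Each cohort was fitted with all its mice by the robust quasi-likelihood test of edgeR 4.0.16 (R 4.3.3), after filterByExpr and TMM scaling. The prior count was 2 for log2 fold changes, the threshold was a Benjamini-Hochberg adjusted p under 0.05 over all tested genes, and the SE is the fold change over the root of F. The tests were checked on simulated counts. The members and gene lists were chosen with earlier results of these data known. Named are the members, the 3 genes of each list with the smallest p in a comparison or those called, and the 8 genes most like Bdh1. Some genes that this rule names are not reported here. All pairs of mice within groups differed by more than counting error (chi-square per gene 15.6 or more), so none was counted as a duplicate. The labels name separate mice, and p-values measure the spread between these mice. Alternatives were DESeq2 1.42.0, RLE normalization, no filter, the filter of the study (over 10 reads in 90% of mice), only the groups compared, a replicate block, plain column totals and leaving out each mouse. Levels per muscle marker sum, with exact permutation tests, were added after the data were seen.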

Additional observations from a re-analysis of the deposited data

Results flagged for a closer look

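In the 28 sets of 4 mice (4 genes in 7 groups), 2 had a mouse far from the other 3 by Dixon's ratio, where chance gives about 1 in 20. In disease mice of cohort F, *Acat1* was low in mouse 4, with 234 CPM against 301 to 308 CPM in the others. In the same group, *Bdh1* was high in mouse 3, with 59.0 CPM against 41.2 to 43.1 CPM. Without mouse 4 the log2 fold change of *Acat1* between disease and WT mice of cohort F was 0.10, and without mouse 3 that of *Bdh1* was −0.05, and neither passed the test.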

How the results depend on the processing

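The 2 calls among the members, of *Oxct1* and *Acat1* in WT treated mice, passed with DESeq2, RLE normalization, no filter, the filter of the study, only the groups compared, the replicate block and every left-out mouse, but not per muscle marker sum. DESeq2 gave 0.58 for *Acat1* in the interaction, as a description. It added a call for *Oxct1* in disease treated against WT mice of cohort F (−0.48). Without the filter, *Acat1* in disease treated against WT mice of cohort F turned to −0.0078. Plain column totals were applied to levels only. They lowered the WT means of cohort G to 469 CPM for *Oxct1*, 255 for *Acat1* and 61.2 for *Slc16a1*. WT treated means were then 346, 220 and 59.8 CPM and disease means 355, 199 and 68.6 CPM. Disease and WT mice then overlapped for *Oxct1*, and disease treated and WT treated mice for *Bdh1*. In cohort F, *Oxct1* of disease treated mice (up to 319 CPM) no longer overlapped that of disease mice (329 CPM or more). Per muscle marker sum, WT treated against WT gave −1.38 for *Bdh1*, −0.28 for *Oxct1*, −0.038 for *Acat1* and 0.15 for *Slc16a1*, and disease against WT in cohort G gave −0.41 for *Acat1*. For tamoxifen in disease mice it gave 0.30 (*Acat1*) and 0.44 (*Slc16a1*) in cohort G, and −0.69 (*Oxct1*), −0.38 (*Acat1*) and −0.093 (*Slc16a1*) in cohort F. For disease against WT in cohort F it gave 0.53 (*Bdh1*), 0.16 (*Oxct1*), 0.34 (*Acat1*) and 0.44 (*Slc16a1*), and *Acat1* no longer overlapped. For treated against WT treated mice of cohort G it gave −1.20 for *Bdh1*, with overlap. The cause of these changes was not tested.

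Counts of called genes moved more. DESeq2 called 937 genes in disease treated against WT treated mice, 327 in the interaction, 1191, 1223 and 544 in cohort F (disease against WT, treated against disease, treated against WT) and 1328 between cohorts, and 2, 3, 3, 4 and 1 pathway genes in treated against disease and against WT treated mice of cohort G, the interaction, treated against WT of cohort F and between cohorts. RLE normalization gave 20 interaction genes. No filter gave 814 genes in treated against disease mice of cohort G, 210 in treated against WT of cohort F and 63 between cohorts. The filter of the study gave 16 interaction genes, and 492 genes with 1 pathway gene between cohorts. With only the groups compared, treated against disease gave 30 genes and 0 pathway genes in cohort G and 122 and 2 in cohort F, disease against WT of cohort F gave 1458 and 3, and treated against WT of cohort F gave 1 pathway gene.

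Mice with the same replicate number did not clearly deviate together more than others. Their median r was −0.01 in cohort G, with 9 of 24 pairs over 0.1, and −0.09 in cohort F, with 1 of 4. Pairs with different numbers had 25 of 72 over 0.1 in cohort G and 11 of 44 in cohort F. No pairing by number was seen, although cohort F has only 4 same-number pairs. The replicate block gave 843 genes in treated against disease mice of cohort G, 10 in the interaction, and 152 genes with 2 pathway genes in treated against disease mice of cohort F. It changed no call of a member.

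Leaving out 1 mouse at a time gave these ranges. In cohort G, called genes were 2034 to 3953 (disease against WT), 2769 to 4825 (WT treated), 368 to 2562 (treated against disease), 182 to 623 (treated against WT treated) and 1 to 293 (interaction). Pathway genes called were 10 to 23, 1 to 7, 0 to 1 and 0 to 2 for disease against WT, treated against disease, treated against WT treated and the interaction. In cohort F, called genes were 18 to 759, 160 to 1253 and 42 to 266 (disease against WT, treated against disease, treated against WT), with 0 to 3, 2 to 6 and 0 to 3 pathway genes. Between cohorts they were 6 to 2195, with 0 to 4 pathway genes. Log2 fold changes were −0.40 to −0.23 for *Slc16a1* in WT treated mice, 0.47 to 0.64 for *Acat1* and 0.43 to 0.66 for *Slc16a1* in the interaction, and −0.27 to 0.044 for *Oxct1* and −0.10 to 0.13 for *Slc16a1* between cohorts. In cohort F they were −0.066 to 0.51 for *Bdh1* and −0.027 to 0.10 for *Acat1* (disease against WT), and −0.10 to 0.054 and −0.051 to 0.074 for *Acat1* in treated mice against disease and WT. With 4 mice a group, a gene that was not called may still have changed by a value inside its interval.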
